A study of Homo sapiens with 78 samples.

Results

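The genes described here are 42 genes of mitosis and chromosome segregation, chosen by name, out of the 19652 genes listed for A549 cells. All 42 were above the filter on low values, so that 42 of the 13327 genes tested were members. In cells that were not stimulated (NS) their mean level was between 10.0 TPM (CDC25C) and 188 TPM (PRC1), where TPM is the share of a library's transcripts that a gene takes, scaled for transcript length. They fall into 9 roles, namely entry into mitosis, mitotic kinases, the spindle checkpoint, anaphase onset, the chromosomal passenger complex, the centromere and kinetochore, spindle motors and microtubule proteins, cytokinesis, and chromosome structure.

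A549 cells are a human cell line from a lung carcinoma with the features of type II alveolar epithelium, and their genotype was wild type (WT) throughout. All cultures were confluent and had spent a night without serum, and no group received serum afterwards. They then received IL-1β-plus-budesonide, budesonide alone at 300 nM, IL-1β alone at 1 ng/ml, or neither (NS), for 1, 2, 6, 12 or 24 h. Budesonide is a glucocorticoid that activates the glucocorticoid receptor (GR), and IL-1β is an inflammatory cytokine that activates NF-κB. There were 4 libraries in each of 18 groups and 3 in IL-1β-plus-budesonide at 12 h and in NS at 6 h. The labels speak of 4 independent experiments, and 3 at 12 h where most groups have 4 libraries, and do not tie a library to an experiment, so p-values measure the spread between these libraries.

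In a dividing cell the kinase CDK1 with a B-type cyclin starts mitosis, the kinetochores join each chromosome to spindle microtubules, and the spindle checkpoint holds back anaphase until every chromosome is attached. CDC20 then turns on the anaphase-promoting complex, which marks securin (PTTG1) and cyclin B for destruction, and the cleavage furrow divides the cell. Most of these mRNAs are known to be made late in the cell cycle, in G2 and M phase, under MuvB complexes with MYBL2 and FOXM1, and are held low in resting cells by the related DREAM complex. In RNA from a whole culture, fewer cells in G2 and mitosis and less mRNA in each such cell cannot be told apart.

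The values of whole libraries bear on all results below. The TPM summed to between 812680 and 1009499 in a library, and the files hold no read counts, so the depth behind each library's values was not at hand (the study's methods give only a nominal depth common to all). The 9 epithelial markers were all above the filter and summed at 24 h to 8660 to 11500 TPM with IL-1β-plus-budesonide, 14600 to 18000 TPM with budesonide and 4200 to 6760 TPM with IL-1β, against 5360 to 6770 TPM in NS. The sum is mostly KRT7, KRT8 and KRT18, and the genes of the list did not move alike. With IL-1β-plus-budesonide at 24 h 2 were called higher and 2 lower, with EPCAM at -1.21 and KRT19 at -1.12 on the log2 scale. PTPRC, the pan-leukocyte marker, was at most 0.71 TPM and CD3E was listed at 0 in all 78 libraries. At 24 h the summed level of the 9 immune markers was 17.0 to 20.6 TPM with IL-1β-plus-budesonide, 5.96 to 9.59 TPM with budesonide and 32.1 to 43.8 TPM with IL-1β, against 8.49 to 9.67 TPM in NS, carried by CD68, CD14 and ITGAM, the 3 of the 9 above the filter. That of the 8 fibroblast markers was 6.85 to 8.54, 5.54 to 8.83 and 8.28 to 13.7 TPM with these treatments, against 16.1 to 22.5 TPM in NS. Of these 8, 5 were above the filter. Over all libraries COL1A1 was at 2.19 to 17.7 TPM, and LUM, THY1, DCN and COL3A1 reached 6.91, 5.38, 3.59 and 2.14 TPM. COL1A2 was at or below 0.202 TPM in every library. With budesonide at 24 h THY1, COL1A1 and LUM were called lower and DCN higher. The part of these 3 lists in the results was not tested. In 5 libraries the distance to their own group over all genes was 0.29 to 0.459, above all the others. They were library 4 of the 1 h group and library 2 of the 12 h group for IL-1β-plus-budesonide, library 3 at 2 h and library 2 at 12 h for budesonide, and library 2 at 24 h for IL-1β. Results that change without them are given both ways.

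The first question was when each treatment changed the mitosis genes. Up to 12 h almost none passed the threshold for a call, which was an adjusted p of at most 0.05 in limma with an absolute log2 fold change of at least 1. At 24 h nearly all did. Budesonide lowered 41 of the 42 members at 24 h (background 5.7% of all genes called lower), with a median log2 fold change of -2.56, where the median over all genes was -0.01. IL-1β alone lowered 39 (4.31% of all genes), with a median of -1.65 (-0.05 over all genes), and IL-1β-plus-budesonide lowered 41 (5.73%), with a median of -2.44 (-0.03 over all genes). CDC25B was not called with any treatment, and AURKA and ECT2 were not called with IL-1β. No member was called higher in these comparisons at 24 h (4.28% of all genes with IL-1β-plus-budesonide, 4.1% with budesonide and 3.76% with IL-1β).

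**Figure D1:**
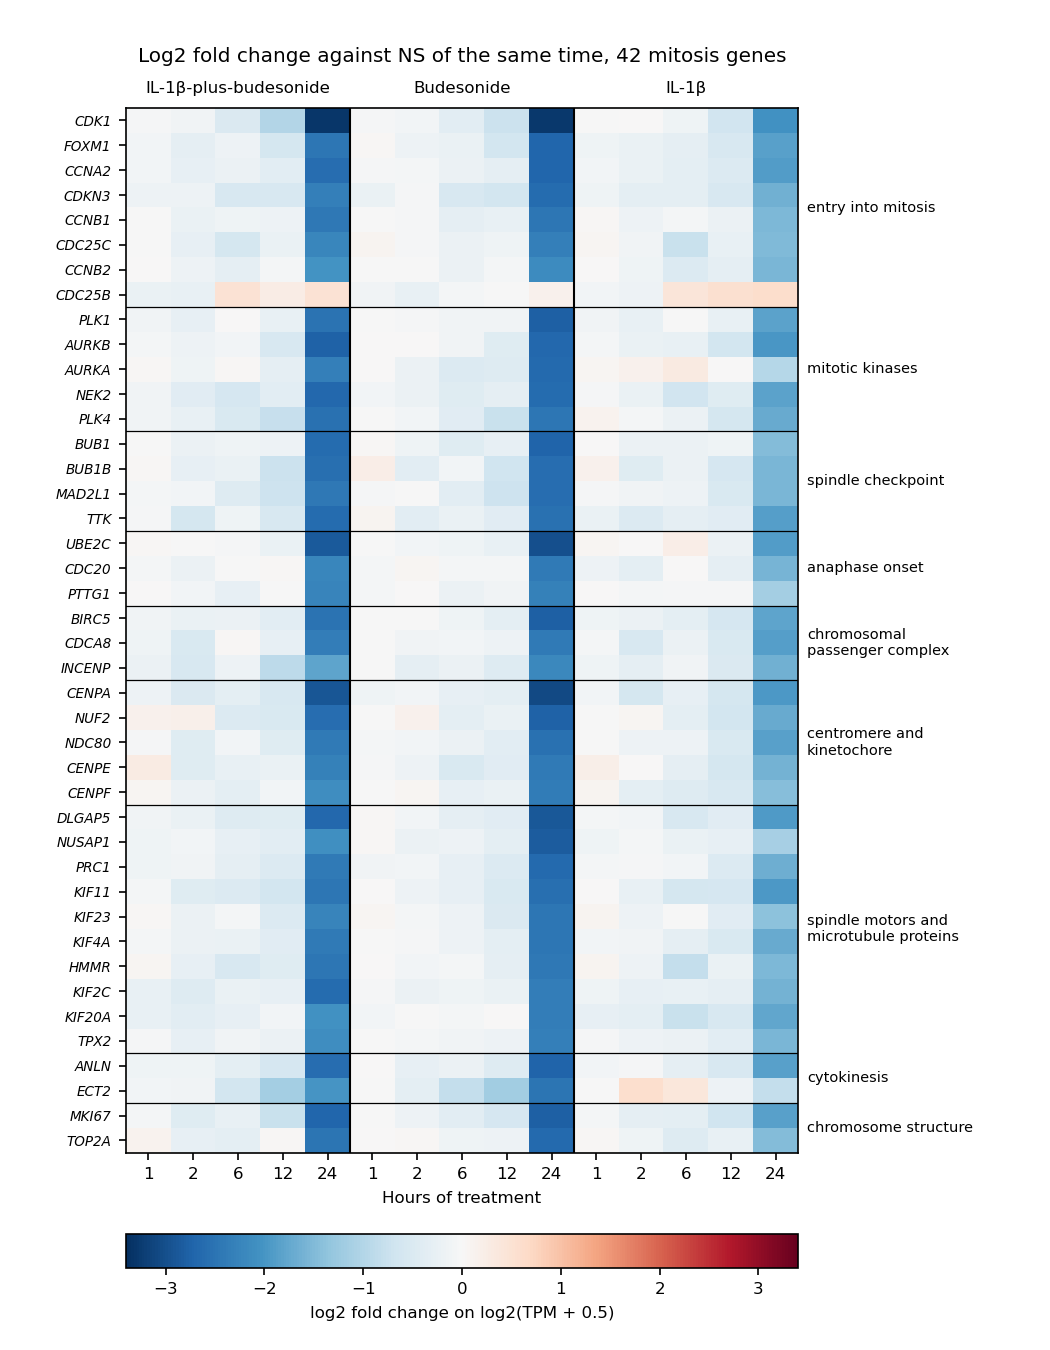
Log2 fold change of the 42 mitosis genes (rows, by role) against NS of the same time, for IL-1β-plus-budesonide, budesonide and IL-1β at 1, 2, 6, 12 and 24 h (columns). Blue is lower and red higher than NS. The 24 h columns are blue for every gene except CDC25B, and ECT2 is the gene with the lowest value at 12 h with budesonide (-1.19).

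The summed level of the 42 mRNAs gives the same course. At 24 h it was 519 ± 51.2 TPM with IL-1β-plus-budesonide, 444 ± 33.7 TPM with budesonide and 880 ± 123 TPM with IL-1β, against 2240 ± 63.8 TPM in NS (SD, n = 4 each). Single libraries spanned 472 to 577 TPM with IL-1β-plus-budesonide, 407 to 486 TPM with budesonide and 725 to 1007 TPM with IL-1β, against 2176 to 2321 TPM in NS, so that each treatment lay below NS without overlap, and both groups with budesonide lay below IL-1β. At 12 h the sum was 1720 ± 147 TPM (n = 3) with IL-1β-plus-budesonide, 1680 ± 116 TPM with budesonide and 1740 ± 171 TPM with IL-1β, against 2140 ± 84.0 TPM in NS (SD, n = 4 each). In NS the sum was 2360 ± 252 TPM at 1 h (SD, n = 4), beside the 24 h value above. For NS at 24 h against NS at 1 h, 0 members were called lower in limma (0.21% of all genes), 0 reached an adjusted p of 0.05, and at an unadjusted p of 0.05 there were 2 lower and 1 higher.

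Entry into mitosis depends on CDK1, the kinase that phosphorylates the mitotic substrates, and at 24 h it had the lowest log2 fold change of the 42 members with budesonide. At 24 h CDK1 was at 9.62, 10.8, 7.44 and 10.2 TPM with IL-1β-plus-budesonide, 8.86, 11.1, 9.8 and 8.79 TPM with budesonide, 30.5, 18.9, 16.6 and 28.9 TPM with IL-1β, against 94.3, 102, 98.3 and 94.6 TPM in NS. All 12 treated libraries were below all NS libraries, and the IL-1β libraries were above both groups that had received budesonide. The log2 fold change against NS was -3.30 ± 0.13 (adjusted p = 7.85e-31) with IL-1β-plus-budesonide, -3.28 ± 0.13 (adjusted p = 9.09e-31) with budesonide and -2.06 ± 0.13 (adjusted p = 9.62e-21) with IL-1β, where ± is the standard error. CCNB1, the cyclin B1 that activates CDK1, was the most abundant gene of this role and was at 26.2, 40, 28 and 28.1 TPM with IL-1β-plus-budesonide, 30.5, 31.7, 30 and 26.6 TPM with budesonide, 62.9, 72.9, 41.8 and 52.1 TPM with IL-1β, against 160, 176, 158 and 162 TPM in NS. Its change with budesonide was -2.45 ± 0.12 (adjusted p = 5.04e-27). CCNB2, the other B-type cyclin of the list, was at 16.2, 17.4, 10.2 and 13 TPM with IL-1β-plus-budesonide, 11.7, 15.5, 12 and 12.6 TPM with budesonide, 22.7, 23.1, 14.4 and 18.8 TPM with IL-1β, against 54.3, 61.3, 58.4 and 58 TPM in NS. It had the smallest fall among the 41 called members with budesonide, -2.13 ± 0.12 (adjusted p = 1.54e-23). The others of this role that fell with budesonide were CCNA2 (cyclin A2), CDC25C (a phosphatase that activates CDK1), CDKN3 (a phosphatase that acts on CDKs) and FOXM1 (the transcription factor of G2 and M phase genes), at -2.69, -2.31, -2.61 and -2.69 on the log2 scale.

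All 5 mitotic kinases fell with budesonide at 24 h. PLK1, which acts on centrosomes, kinetochores and cytokinesis, was at 12.6, 9.83, 9.49 and 9.36 TPM with IL-1β-plus-budesonide, 8.76, 10.8, 6.14 and 8.6 TPM with budesonide, 22.9, 17.8, 12.8 and 15.5 TPM with IL-1β, against 57.8, 66.8, 61.1 and 55.9 TPM in NS at 24 h. No treated library reached the level of any NS library, and the change with budesonide was -2.77 ± 0.12 (adjusted p = 6.66e-29). AURKB, the kinase of the chromosomal passenger complex, NEK2, a centrosome kinase, AURKA, the spindle pole kinase, and PLK4, which starts centriole duplication, were between -2.67 (AURKB) and -2.47 (PLK4) with budesonide. AURKA stood apart with IL-1β, where its change of -0.96 ± 0.11 (adjusted p = 1.82e-11) missed the minimum fold, at 27.2 ± 3.76 TPM with IL-1β against 53.2 ± 4.25 TPM in NS (SD, n = 4 each).

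All 4 genes of the spindle checkpoint and all 3 of anaphase onset fell with budesonide at 24 h. MAD2L1, which binds and restrains CDC20, was at 8.74, 9.16, 7.61 and 6.44 TPM with IL-1β-plus-budesonide, 7.1, 8.47, 6.81 and 6.01 TPM with budesonide, 18, 11.7, 13.8 and 16.3 TPM with IL-1β, against 42, 48.3, 44.8 and 43.4 TPM in NS at 24 h. The change was -2.58 ± 0.11 (adjusted p = 1.45e-29) with budesonide, and BUB1, BUB1B and TTK, the kinase and kinase-like proteins that build the checkpoint signal, were between -2.73 (BUB1) and -2.53 (TTK). PTTG1, the securin that blocks separase, was at 29.8, 31.3, 23.3 and 20.1 TPM with IL-1β-plus-budesonide, 25.1, 29.5, 27.4 and 17.9 TPM with budesonide, 61.1, 82, 39.5 and 47.3 TPM with IL-1β, against 115, 133, 123 and 125 TPM in NS. UBE2C, the ubiquitin-conjugating enzyme that works with the anaphase-promoting complex, was at 15.4, 17.3, 10.9 and 12.2 TPM with IL-1β-plus-budesonide, 12.2, 14.2, 11.7 and 12.3 TPM with budesonide, 33.5, 38.3, 18.2 and 24 TPM with IL-1β, against 102, 112, 104 and 95.3 TPM in NS. UBE2C was the third lowest member with budesonide, -2.98 ± 0.13 (adjusted p = 8.07e-29), beside -2.31 ± 0.16 for PTTG1 and -2.41 ± 0.19 for CDC20, the activator of the complex.

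All 5 centromere genes and all 3 of the chromosomal passenger complex fell too. CENPA, the histone H3 variant that marks where kinetochores form, was at 3.95, 5.3, 3.09 and 3.34 TPM with IL-1β-plus-budesonide, 4.44, 3.22, 3.12 and 2.82 TPM with budesonide, 8.87, 8.89, 6.79 and 7.38 TPM with IL-1β, against 30.6, 30.9, 34.2 and 32.9 TPM in NS at 24 h. It was the second lowest member with budesonide, -3.08 ± 0.13 (adjusted p = 1.63e-29). CENPF, a large protein of the outer kinetochore, was at 7.62, 12.4, 7.3 and 8.27 TPM with IL-1β-plus-budesonide, 7.17, 10.7, 8.08 and 4.39 TPM with budesonide, 15.1, 20.8, 10.2 and 12.1 TPM with IL-1β, against 37.2, 41.5, 36.5 and 43.3 TPM in NS. Its change with budesonide was -2.37 ± 0.19 (adjusted p = 5.33e-17), and the microtubule-binding NDC80 and NUF2 and the kinetochore motor CENPE lay between those of CENPA and CENPF. In the chromosomal passenger complex BIRC5 (survivin) was at 10.2, 7.67, 7.44 and 9.4 TPM with IL-1β-plus-budesonide, 5.76, 8.42, 6.67 and 7.77 TPM with budesonide, 16.8, 17.9, 10.2 and 13.7 TPM with IL-1β, against 54, 50.5, 50.6 and 50.3 TPM in NS. INCENP, the scaffold of the complex, was at 7.34, 5.23, 5.58 and 5.39 TPM with IL-1β-plus-budesonide, 3.78, 4.57, 4.86 and 4.11 TPM with budesonide, 8.54, 3.25, 8.69 and 7.5 TPM with IL-1β, against 23.8, 21, 20.2 and 21.3 TPM in NS. Groups of treated and NS libraries did not overlap for either gene. The changes with budesonide were -2.77 ± 0.11 (adjusted p = 1.23e-30) for BIRC5 and -2.20 ± 0.20 (adjusted p = 1.46e-14) for INCENP, and CDCA8 (borealin) was at -2.40 ± 0.13. INCENP had its lowest IL-1β value in library 2, one of the 5 distant libraries.

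All 14 genes of the spindle, of cytokinesis and of chromosome structure fell with budesonide. PRC1, which bundles the microtubules of the central spindle and had the highest mean level of all members, was at 38.4, 36, 32.2 and 34.2 TPM with IL-1β-plus-budesonide, 30.6, 42.9, 25 and 23.4 TPM with budesonide, 81.6, 58.5, 46.2 and 53.3 TPM with IL-1β, against 203, 185, 174 and 187 TPM in NS at 24 h. Its change with budesonide was -2.64 ± 0.13 (adjusted p = 1.66e-26), and the other 9 genes of its role, the kinesins KIF11, KIF20A, KIF23, KIF2C and KIF4A and the spindle proteins TPX2, NUSAP1, HMMR and DLGAP5, were between -2.87 (DLGAP5) and -2.32 (TPX2). TOP2A, the topoisomerase that untangles sister chromatids, was at 26, 31.9, 17.5 and 16 TPM with IL-1β-plus-budesonide, 21.1, 20.1, 22.3 and 15.1 TPM with budesonide, 51.5, 75.8, 29.8 and 32.4 TPM with IL-1β, against 124, 141, 112 and 122 TPM in NS. The change was -2.65 ± 0.20 (adjusted p = 8.26e-18), and MKI67, the coat protein of mitotic chromosomes used as the Ki-67 proliferation marker, was at -2.79 ± 0.14. In cytokinesis ANLN (anillin), which organizes the contractile ring, was at -2.72 ± 0.23 and ECT2, the exchange factor that activates RHOA at the furrow, at -2.48 ± 0.17.

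At 24 h every library was below every NS library for 41 members with IL-1β-plus-budesonide (22.1% of all genes), 41 with budesonide (22.6%) and 41 with IL-1β (15.6%). Some members share sequence with other genes, and kallisto divides such reads by model. Of the 31-base sequences in its GENCODE v44 transcripts, NUSAP1 shared 84.6% and PRC1 60.1% with transcripts of other genes, KIF4A 27.7% (mostly with KIF4B), CDC20 20.6%, NEK2 19.2%, FOXM1 17.4%, AURKA 16.4% and PLK1 15.6%, and the levels of these genes are less certain. The annotation used for the deposited values is not given in the sources used here.

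**Figure D2:**
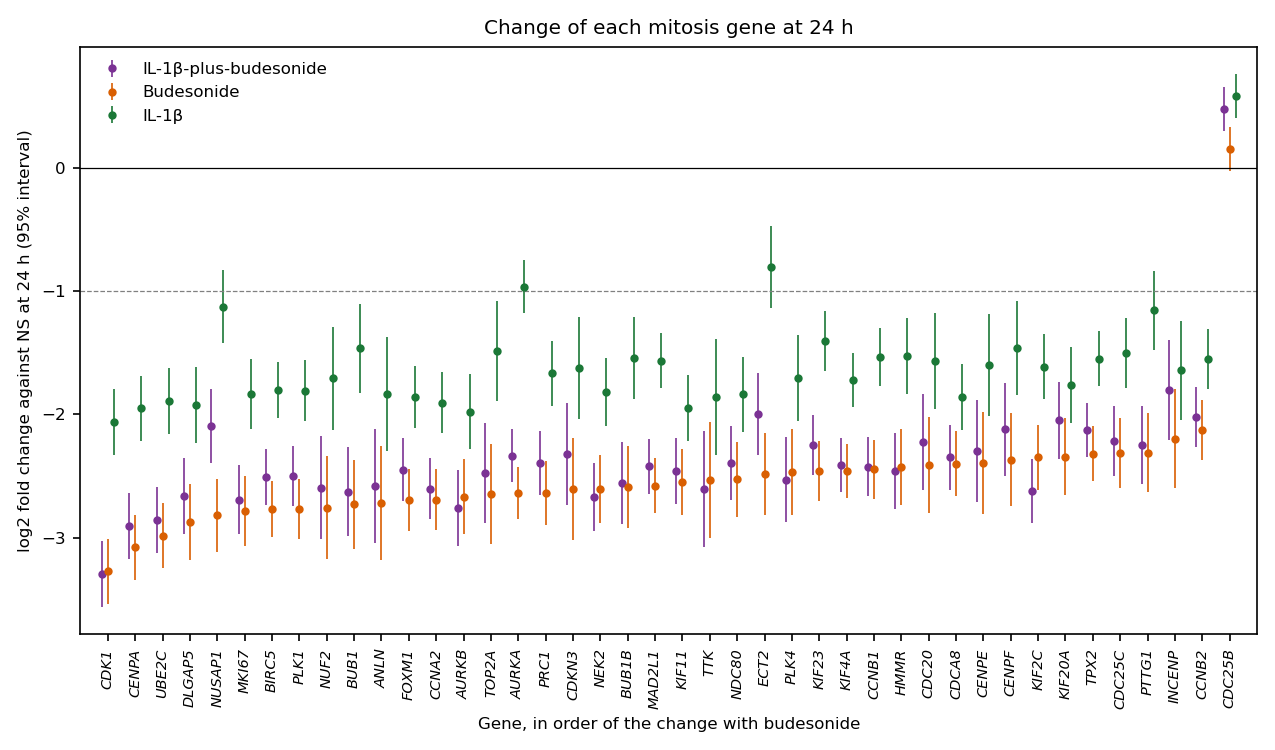
Log2 fold change against NS at 24 h for each of the 42 genes, ordered by the change with budesonide, with 95% intervals from limma, for IL-1β-plus-budesonide, budesonide and IL-1β. The dashed line marks the minimum fold for a call. From CDK1 (-3.28) to CCNB2 (-2.13) every budesonide value is below it, the falls with IL-1β are smaller, and CDC25B alone is above 0.

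The promoters of CDK1, the A- and B-type cyclins of the list and 3 later-acting members are shown because 41 members moved together, and that of CDC25B because it did not fall at 24 h. The sequences are from RefSeq on GRCh38.p14 and were searched on both strands for TTTGAA and TTTAAA, forms of the cell cycle genes homology region that MuvB complexes bind, and for CCAAT, which the factor NF-Y binds and which reads ATTGG on the other strand. TTTGAA on the other strand reads TTCAAA. A matched stretch is in capitals, matches to each motif were counted separately, and each line runs from 150 bases before the start of transcription to 50 after it. Where a gene had several windows (CDK1 2, CDC25B 4), one with the most matches in this stretch is given; for CDC25B another window held 1 match as well, a TTTAAA at 32.
CDK1 promoter, chr10:60778328-60778527, plus strand: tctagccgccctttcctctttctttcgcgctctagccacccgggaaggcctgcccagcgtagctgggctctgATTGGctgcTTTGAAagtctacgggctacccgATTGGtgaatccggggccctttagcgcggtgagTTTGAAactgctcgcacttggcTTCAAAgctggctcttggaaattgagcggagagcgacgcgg
CCNA2 promoter, chr4:121823834-121824033, minus strand: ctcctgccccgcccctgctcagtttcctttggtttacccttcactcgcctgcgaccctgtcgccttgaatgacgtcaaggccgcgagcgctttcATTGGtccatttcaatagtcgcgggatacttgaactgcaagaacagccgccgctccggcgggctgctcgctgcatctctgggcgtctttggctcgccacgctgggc
CCNB1 promoter, chr5:69167000-69167199, plus strand: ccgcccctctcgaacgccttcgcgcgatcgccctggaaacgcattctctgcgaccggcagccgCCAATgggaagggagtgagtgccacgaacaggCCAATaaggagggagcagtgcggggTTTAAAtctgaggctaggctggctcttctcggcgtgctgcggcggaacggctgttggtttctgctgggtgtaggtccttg
CCNB2 promoter, chr15:59104996-59105195, plus strand: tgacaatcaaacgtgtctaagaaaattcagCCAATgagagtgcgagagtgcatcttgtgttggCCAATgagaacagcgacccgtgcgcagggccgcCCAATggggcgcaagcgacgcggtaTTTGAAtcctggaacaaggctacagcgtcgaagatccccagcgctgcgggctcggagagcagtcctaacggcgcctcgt
PLK1 promoter, chr16:23678739-23678938, plus strand: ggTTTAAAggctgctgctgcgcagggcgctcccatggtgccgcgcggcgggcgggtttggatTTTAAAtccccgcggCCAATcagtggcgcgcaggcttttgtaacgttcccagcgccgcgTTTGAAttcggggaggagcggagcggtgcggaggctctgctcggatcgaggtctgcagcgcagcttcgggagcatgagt
CDC20 promoter, chr1:43358831-43359030, plus strand: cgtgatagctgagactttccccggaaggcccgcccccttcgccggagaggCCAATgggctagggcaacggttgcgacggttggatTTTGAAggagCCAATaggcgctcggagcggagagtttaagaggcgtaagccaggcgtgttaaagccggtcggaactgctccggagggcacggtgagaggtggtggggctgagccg
TOP2A promoter, chr17:40417847-40418046, minus strand: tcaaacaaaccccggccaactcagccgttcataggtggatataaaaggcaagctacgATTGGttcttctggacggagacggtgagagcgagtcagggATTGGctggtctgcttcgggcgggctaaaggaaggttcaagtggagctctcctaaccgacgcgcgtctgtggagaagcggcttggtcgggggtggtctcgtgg
CDC25B promoter, chr20:3796160-3796359, plus strand: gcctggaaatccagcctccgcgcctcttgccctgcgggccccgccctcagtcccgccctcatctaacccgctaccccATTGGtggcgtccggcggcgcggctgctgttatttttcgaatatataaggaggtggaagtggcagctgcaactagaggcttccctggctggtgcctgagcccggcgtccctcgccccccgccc

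In CCNB1 a TTTAAA began at position -30 and CCAAT at -87 and -55, counted from the start. CCNB2 held TTTGAA at -29 with CCAAT at -120, -87 and -54, and PLK1 held TTTGAA at -29 and TTTAAA at -148 and -88, with CCAAT at -73. CDK1 held TTTGAA on one strand or the other at -69, -13 and 9, beside CCAAT at -78 and -46. CDC20 had TTTGAA at -65 and CCAAT at -100 and -55, TOP2A had CCAAT at -93 and -53 here and TTTGAA further out at -194 and -151, and CDC25B had CCAAT at -73. CCNA2 had CCAAT at -56 and neither TTTGAA nor TTTAAA. Other forms of the cell cycle genes homology region were not searched for. A promoter without a match, such as those shown for CCNA2 and CDC25B, may therefore still hold one. A window of 300 bases (250 before and 50 after the start) was at hand for 36 members, in 48 windows, and for none of FOXM1, BIRC5, UBE2C, TPX2, AURKA and TTK. TTTGAA or TTTAAA stood in 36 of the 48 windows (75.0%), against 24.0% of all 35116 windows and 17.2% of those of the genes tested. CCAAT stood in 35 of the 48 (72.9%), against 34.6% of all windows and 34.2% of those of the genes tested. CCNA2, AURKB, BUB1 and NEK2 were the 4 members whose windows held neither TTTGAA nor TTTAAA. A match is a description of the sequence, and binding was not measured here.

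CDC25B, a phosphatase that activates CDK1 complexes at the centrosome, was the member that did not fall at 24 h. It was then at 122, 121, 136 and 125 TPM with IL-1β-plus-budesonide, 106, 86.8, 98.6 and 113 TPM with budesonide, 124, 131, 165 and 127 TPM with IL-1β, against 88.8, 86.3, 88.5 and 97.2 TPM in NS. The budesonide libraries overlapped NS, and all 8 libraries with IL-1β were above all NS libraries. The change was 0.48 ± 0.09 (adjusted p = 9.65e-06) with IL-1β-plus-budesonide, 0.16 ± 0.09 (adjusted p = 0.155) with budesonide and 0.59 ± 0.09 (adjusted p = 1.47e-07) with IL-1β, so that the rise with IL-1β passed the adjusted p but not the minimum fold. With IL-1β the change was 0.42 ± 0.10 (adjusted p = 0.00023) at 6 h and 0.55 ± 0.09 (adjusted p = 8.66e-07) at 12 h. At 2 h it was lower with IL-1β-plus-budesonide, -0.26 ± 0.09 (adjusted p = 0.0348).

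ECT2 had the lowest log2 fold change of all members with budesonide at both 6 and 12 h. At 6 h it was at 63.9, 66.5, 58.1 and 66 TPM with IL-1β-plus-budesonide, 61.8, 54.6, 52 and 52.5 TPM with budesonide, 137, 132, 117 and 127 TPM with IL-1β, against 93.5, 97.3 and 102 TPM in NS. Both groups that had received budesonide were below all NS libraries and the IL-1β libraries were above them. The change against NS at 6 h was -0.62 ± 0.18 (adjusted p = 0.00576) with IL-1β-plus-budesonide, -0.82 ± 0.18 (adjusted p = 0.000372) with budesonide and 0.39 ± 0.18 (adjusted p = 0.0713) with IL-1β. At 2 h IL-1β gave 157, 156, 134 and 136 TPM, against 103, 104, 86.3 and 97.1 TPM in NS, a change of 0.58 ± 0.17 (adjusted p = 0.00927). At 12 h ECT2 was at 62.6, 32.5 and 52.5 TPM with IL-1β-plus-budesonide, 59.2, 33.7, 48 and 47.4 TPM with budesonide, 108, 85.2, 94.3 and 90.9 TPM with IL-1β, against 120, 90, 122 and 96 TPM in NS, and it was the 1 member called lower with budesonide, -1.19 ± 0.17 (adjusted p = 2.58e-08), and the 1 called with IL-1β-plus-budesonide, -1.15 ± 0.18 (adjusted p = 4.31e-07). Library 2 was the lowest in both of these groups and is one of the distant libraries in each. Without the 5 distant libraries the change with budesonide was -1.04 (adjusted p = 5.66e-12 in limma) and 0 members were called with IL-1β-plus-budesonide. At 24 h ECT2 was at 30.3, 27.1, 30.7 and 30.1 TPM with IL-1β-plus-budesonide, 24.1, 19.1, 23.4 and 17.9 TPM with budesonide, 86.4, 42.1, 67.2 and 89.5 TPM with IL-1β, against 119, 119, 121 and 119 TPM in NS, where the change with IL-1β was -0.80 ± 0.17 (adjusted p = 7.72e-05) and missed the minimum fold. It was -0.57 without the 5 distant libraries, of which IL-1β library 2 at 24 h is one.

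**Figure D3:**
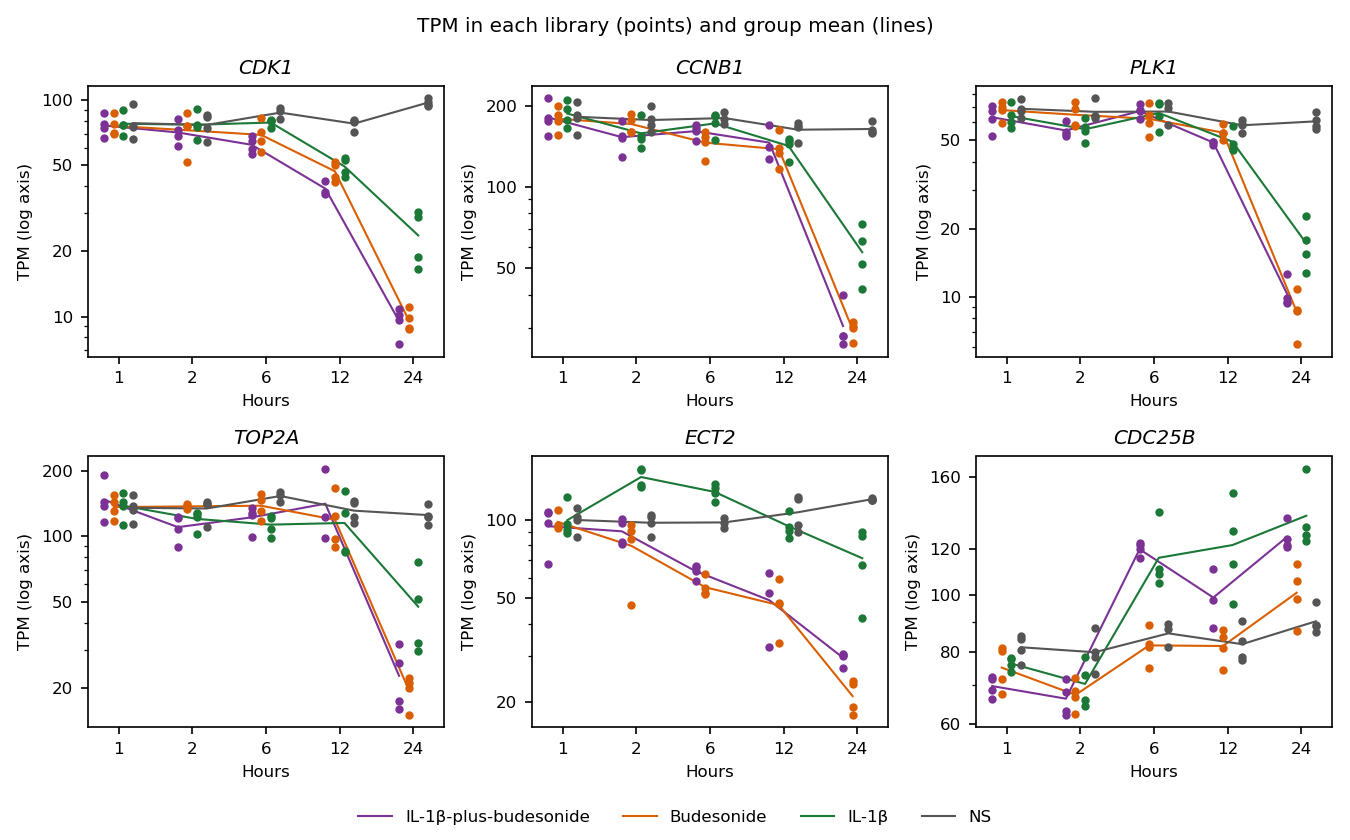
TPM of CDK1, CCNB1, PLK1, TOP2A, ECT2 and CDC25B in every library (points) and their group means (lines) at 1, 2, 6, 12 and 24 h, evenly spaced, on a log axis, with IL-1β-plus-budesonide, budesonide, IL-1β and NS from left to right at each time. At 24 h CDK1 is at 7.44 to 11.1 TPM in the libraries with budesonide and at 94.3 to 102 TPM in NS, ECT2 lies below NS in both groups with budesonide from 6 h on, and CDC25B is not lower than NS at 24 h.

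At 1 h 0 members were called with any treatment in limma (lower calls over all genes were 0.015% with IL-1β-plus-budesonide, 0.0225% with budesonide and 0.0075% with IL-1β), and at an unadjusted p of 0.05 there was 1 lower with IL-1β-plus-budesonide, 0 with budesonide and 0 with IL-1β. At 2 h 0 were called lower with IL-1β-plus-budesonide (0.518% of all genes), budesonide (0.315%) or IL-1β (0.503%), and 16, 3 and 8 were lower with these treatments at an unadjusted p of 0.05. CENPA was lower at 2 h with IL-1β, -0.60 ± 0.13 (adjusted p = 0.000449), and with IL-1β-plus-budesonide, -0.50 ± 0.13 (adjusted p = 0.00444), as was CDCA8, -0.53 ± 0.13 (adjusted p = 0.00211) and -0.51 ± 0.13 (adjusted p = 0.00332), all short of the minimum fold. At 6 h 0 were called lower with IL-1β-plus-budesonide (2.33% of all genes), budesonide (0.968%) or IL-1β (4.81%), and 14, 12 and 14 were lower with these treatments at an unadjusted p of 0.05. The percentages are shares of genes called. The share of all genes lower at an unadjusted p was not computed, so counts at that threshold, here and elsewhere, have no background.

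Without a minimum fold, an adjusted p of 0.05 at 6 h picked 3 members lower with budesonide (6.65% of all genes), namely ECT2, AURKA and MAD2L1, and 10 with IL-1β (25.5% of all genes). Both counts, of 42 members, were near the share of all genes. Each treated group of 6 h held a library numbered 3, and NS of that time held none. In this library the 42 mRNAs summed to 1806 TPM with IL-1β-plus-budesonide, 1739 TPM with budesonide and 1983 TPM with IL-1β, the lowest of each group. The main fit did not allow for this, which can make falls against NS at 6 h look larger. Its part in these counts was not tested. The lowest with IL-1β at 6 h were HMMR, -0.80 ± 0.17 (adjusted p = 5.83e-05), KIF20A, -0.76 ± 0.17 (adjusted p = 0.000163), CDC25C, -0.75 ± 0.15 (adjusted p = 4.21e-05), and NEK2, -0.66 ± 0.15 (adjusted p = 0.000224). HMMR, a spindle-associated hyaluronan receptor, was at 21.5, 18.6, 16.7 and 21.7 TPM with IL-1β, against 32.4, 35.8 and 34.7 TPM in NS. The 4 IL-1β libraries were below the 3 NS libraries. At 12 h the IL-1β changes of HMMR and CDC25C were -0.23 ± 0.15 and -0.26 ± 0.14, and the difference between the 12 h and 6 h changes did not pass the test for either (adjusted p = 0.115 and 0.142), a comparison chosen after these values were seen.

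At 12 h 1 member was called lower with IL-1β-plus-budesonide (3.46% of all genes), 1 with budesonide (2.6%) and 0 with IL-1β (3.08%, with 29 lower at an unadjusted p of 0.05 in limma), none of them above the share of all genes. At an adjusted p of 0.05 with no minimum fold the counts were 18 (17.3%), 15 (15.5%) and 26 (20.8%) with these treatments. The 1 called with IL-1β-plus-budesonide became 2 with the replicate number as a block, 3 without libraries numbered 1 and 2 without those numbered 4. After ECT2 the lowest with budesonide were PLK4, -0.75 ± 0.17 (adjusted p = 0.000465), CDK1, -0.73 ± 0.13 (adjusted p = 1.17e-05), MAD2L1, -0.70 ± 0.11 (adjusted p = 7.09e-07), and BUB1B, -0.67 ± 0.17 (adjusted p = 0.00109). CDK1 was at 42.5, 37.7 and 36.9 TPM with IL-1β-plus-budesonide, 51.6, 41.9, 44.3 and 50 TPM with budesonide, 54, 52.7, 46.7 and 44 TPM with IL-1β, against 79, 71.5, 81.3 and 79.7 TPM in NS at 12 h. Every treated library was below every NS library at this time. CCNB1, in contrast, was at 141, 169 and 127 TPM with IL-1β-plus-budesonide, 140, 162, 117 and 134 TPM with budesonide, 148, 150, 124 and 144 TPM with IL-1β, against 167, 172, 145 and 168 TPM in NS, and the groups overlapped.

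The difference between 12 and 24 h was tested for each treatment. The change was lower at 24 h than at 12 h for 39 members with IL-1β-plus-budesonide (1.46% of all genes), 41 with budesonide (1.66%) and 35 with IL-1β (0.908%). Among the 41 members other than CDC25B, the 12 h value was 16.0% of the 24 h value at the median with IL-1β-plus-budesonide, 12.3% with budesonide and 27.5% with IL-1β, on the log2 scale. ECT2 had the highest share with IL-1β-plus-budesonide (57.6%) and with budesonide (48.0%).

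The next question was how cotreatment compared with each treatment alone. Against budesonide, 0 members were called lower in limma at 6, 12 and 24 h (1.97%, 0.653% and 0.713% of all genes), with 2, 1 and 1 lower at an unadjusted p of 0.05. The 2 at 6 h also passed an adjusted p of 0.05 (2196 of all 13327 genes were lower at it), with HMMR lowest at -0.48. CDC25B (0.55) and AURKA were higher at it (1724 of all genes). At 24 h 4 members were higher with IL-1β-plus-budesonide at an adjusted p of 0.05 with no minimum fold (5.67% of all genes). These were NUSAP1, 0.73 ± 0.15 (adjusted p = 0.000209), ECT2, 0.48 ± 0.17 (adjusted p = 0.0461), CDC25B, 0.32 ± 0.09 (adjusted p = 0.00949), and AURKA, 0.31 ± 0.11 (adjusted p = 0.0487). The median difference over the 42 members at 24 h was 0.13. For CDK1 it was -0.02 ± 0.13, with a 95% interval of -0.29 to 0.24, and for CCNB1 0.02 ± 0.12, with an interval of -0.21 to 0.26.

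Against IL-1β alone, cotreatment lowered 1 member at 6 h (2.48% of all genes), which was ECT2, -1.01 ± 0.17 (adjusted p = 1.41e-06). At 12 h 0 were called (3.53% of all genes, with 4 lower at an unadjusted p of 0.05 in limma), and 1 with the replicate number as a block, without libraries numbered 1 or without those numbered 4. The 1 call at 6 h was lost without libraries numbered 1. At 24 h 7 were called lower (3.52% of all genes), namely AURKA, -1.37 ± 0.11 (adjusted p = 3.37e-17), CDK1, -1.24 ± 0.13 (adjusted p = 1.07e-11), ECT2, BUB1, PTTG1, BUB1B and KIF2C, and 39 were lower at an adjusted p of 0.05 with no minimum fold (18.6%). The count of 7 was 11 without the libraries numbered 2, and at lowest 5 when another number was left out.

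Budesonide and IL-1β alone were also set against each other at 24 h. Budesonide was lower for all 42 members at an adjusted p of 0.05 with no minimum fold (23.2% of all genes), and 13 were called (6.17%). Of the 42, 4 had an adjusted p above 0.05 when the libraries of one number were left out, at highest 0.241 for INCENP, 0.194 for TTK, 0.116 for KIF20A and 0.08 for ANLN in limma. The lowest were NUSAP1, -1.70 ± 0.15 (adjusted p = 2.58e-15), ECT2, -1.68 ± 0.17 (adjusted p = 2.25e-13), and AURKA, -1.68 ± 0.11 (adjusted p = 1.49e-21). Without overlap, 32 members were lower with budesonide than with IL-1β (17.4% of all genes). The count of 13 was 20 without the libraries numbered 3 and 11 without the 5 distant libraries.

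For 41 members the log2 changes with the single treatments did not add. The interaction is the log2 change with cotreatment minus the sum of the 2 single changes, and 0 would mean that the changes add. It was called above 0 for 41 members at 24 h (3.11% of all genes), with a median of 1.78. The values ran up to 2.14 for DLGAP5, and CDC25B was at -0.27 ± 0.13 (adjusted p = 0.152). CDK1 had 2.04 ± 0.19 (adjusted p = 2.7e-13) and ECT2 1.28 ± 0.24 (adjusted p = 2.52e-05). The 3 treatments share the NS libraries in this contrast, and the pseudocount of 0.5 TPM weighs more where levels are low. The interaction is also the difference of cotreatment from budesonide (median 0.13) minus the change with IL-1β (median -1.65). It was not particular to the members. Of the 33 genes of DNA replication and S phase described below 30 were called above 0 (median 1.54), and of 118 other mitosis genes 61 (median 1.08).

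Genes of DNA replication and S phase, which act earlier in the cycle, were called in larger number than the mitosis genes at 12 h. At 12 h 24 of 33 were called lower with budesonide (2.6% of all genes), with a median log2 fold change of -1.32, beside 1 of 42 and -0.34 for the mitosis genes. At 6 h 0 of 33 and 0 of 42 were called (0.968% of all genes), with medians of -0.41 and -0.20. At 24 h the counts were 33 of 33 and 41 of 42 (5.7% of all genes), with medians of -2.36 and -2.56. With IL-1β 11 of the 33 were called at 12 h (median -0.88), beside 0 of 42 (median -0.46) and 3.08% of all genes. At 24 h 27 were called (median -1.40), beside 39 of 42 (median -1.65) and 4.31% of all genes. PCNA, the sliding clamp of DNA polymerase, averaged 116 ± 6.5 TPM with IL-1β-plus-budesonide, 87.5 ± 8.99 TPM with budesonide and 205 ± 12.8 TPM with IL-1β, against 343 ± 8.84 TPM in NS at 24 h (SD, n = 4 each). MCM7, a subunit of the replicative helicase, changed by -1.94 ± 0.12 with budesonide (adjusted p = 2.26e-22). The difference between the 2 lists was not tested.

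**Figure D4:**
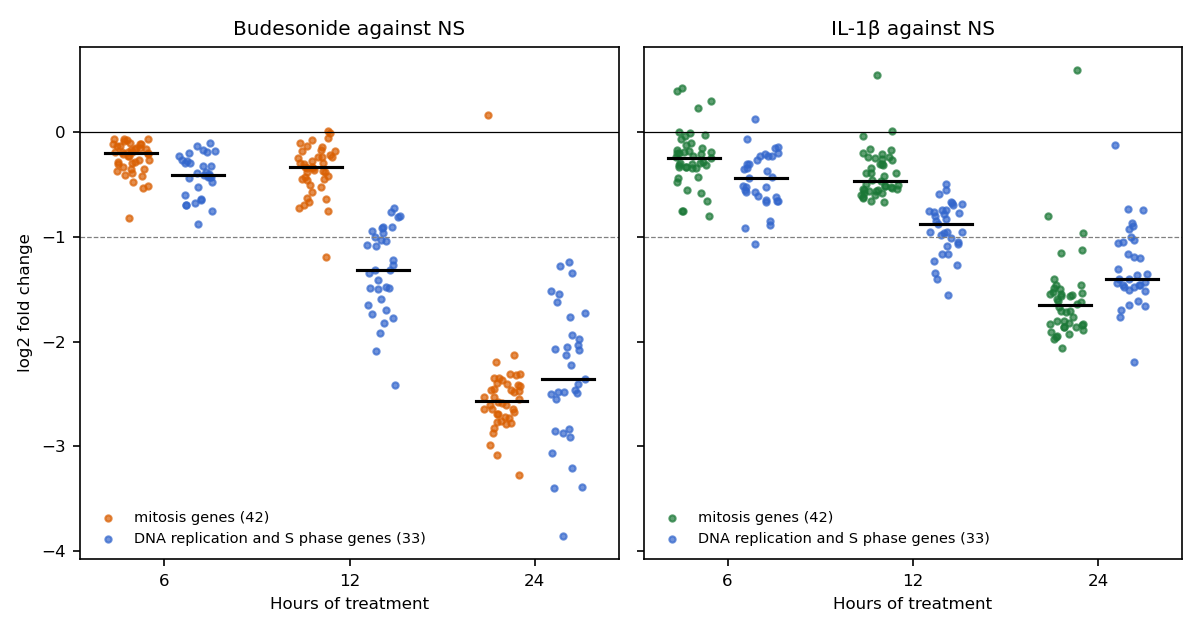
Log2 fold change against NS of each mitosis gene (42 points) and each DNA replication and S phase gene (33 points) at 6, 12 and 24 h with budesonide (left) and IL-1β (right), with black bars at the medians and a dashed line at the minimum fold for a call. At 12 h with budesonide the medians are -0.34 for mitosis genes and -1.32 for S phase genes.

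The fall at 24 h reached further mitosis genes but not all of them. With budesonide 5.7% of all genes were called lower at 24 h and 4.1% higher. Of 35 other kinetochore genes 23 were called lower with budesonide (median -1.69), among them ZWINT, 11.7 ± 1.29 TPM against 81.2 ± 6.01 TPM in NS (SD, n = 4 each), and HJURP, the chaperone that loads CENPA, at -3.14 ± 0.15 (adjusted p = 4.18e-27). Of 28 other spindle and centrosome genes 21 were called (median -1.98), with SPAG5 at -2.53 ± 0.19 and RACGAP1, a partner of ECT2 and KIF23 at the central spindle, at -1.98 ± 0.21. Of 17 other genes of mitotic entry 12 were called (median -1.96), with CKS2 at -2.10 ± 0.12 and CKS1B at -1.81 ± 0.12, both small proteins that bind CDKs. Of 21 condensin and cohesin genes 12 were called (median -1.1), including the condensin subunits SMC4, -1.88 ± 0.21, and NCAPD2, -1.09 ± 0.19. No gene of these lists was called higher with budesonide at 24 h.

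Of 17 genes listed with the anaphase-promoting complex only 2 were called lower with budesonide at 24 h (5.7% of all genes, median of the list -0.21). These were UBE2S, -2.10 ± 0.15, and FBXO5, -1.81 ± 0.09, which are an enzyme that works with the complex and its inhibitor EMI1, not subunits. Of 13 DREAM and MuvB genes 3 were called lower (median -0.38), with MYBL2, the B-MYB factor that joins MuvB for late cell cycle genes, at -3.17 ± 0.13, RBL1 (p107) at -1.73 ± 0.24, and the MuvB subunit LIN9 at -1.52 ± 0.16. Among 13 reference genes 1 was called lower (5.7% of all genes), the transferrin receptor TFRC at -1.26 ± 0.24, and the median was 0.11. Of 11 genes of CDK inhibitors, D-type cyclins and CDK4 and CDK6, 9 were above the filter, and these did not move alike. With budesonide at 24 h 2 were called higher and 0 lower. By adjusted p with no minimum fold 4 were lower, with the cyclin CCND3 lowest at -0.94. CCND3 was called lower with budesonide at 6 h (-1.35). The inhibitor CDKN2C was called lower with IL-1β at 6, 12 and 24 h (-1.95, -1.64 and -1.81). The 2 called higher were CDKN1C and CDKN1A. CDKN1C, the inhibitor p57, averaged 11.8 ± 1.81 TPM with IL-1β-plus-budesonide, 24.6 ± 4.08 TPM with budesonide and 0.364 ± 0.144 TPM with IL-1β, against 0.836 ± 0.252 TPM in NS at 24 h (SD, n = 4 each), and was already changed by 4.12 ± 0.20 at 6 h with budesonide (adjusted p = 3.32e-26). CDKN1A, the inhibitor p21, averaged 71.2 ± 6.59 TPM with IL-1β-plus-budesonide, 80.4 ± 2.61 TPM with budesonide and 65.5 ± 3.47 TPM with IL-1β, against 39.1 ± 2.32 TPM in NS (SD, n = 4 each).

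Within groups most members also varied together. After subtracting each group's mean, the median correlation over the 861 pairs of members was 0.53 across the 78 libraries, and 789 pairs were above 0. This is a description, since the values of one library share its RNA and scaling. CDC25B had a median correlation with the other members of -0.22, and that of every other member was at least 0.25. Of the 18 groups with a library numbered 3, this library had the lowest median level of the members in 15. The NS group of 6 h lacked that number, and so did the cotreated group of 12 h. The gap can make a fall against NS look larger at 6 h, and smaller with cotreatment at 12 h. Its size was not tested.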

How the data were processed

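Poly(A) RNA from 78 A549 cultures was analysed. Per the labels, the authors prepared stranded libraries, quantified them with kallisto on GRCh38 (hg38) and normalized them with sleuth, and no tool versions are given in the sources used here. The deposited values are a normalized signal, TPM per gene and library after the authors' rescaling. No read counts were used, so the depth of each library was not at hand beyond the nominal depth in the study's methods. The authors' comparison columns (log2 fold changes and adjusted values) were not used. The table also holds 1 set of values with no matching label, given there as a further NS library of 6 h, which was left out.

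A gene was tested where 3 or more libraries reached 1 TPM (13327 tested, 6325 removed), and the code was also tested on simulated data. Log2 of TPM plus a pseudocount of 0.5, which understates changes of low genes, was fitted with 1 mean per group in limma 3.58.1 under R 4.3.3 (58 residual degrees of freedom, trended moderation). Tests were two-sided, with Benjamini-Hochberg adjustment over the 13327 genes. A call needed an adjusted p of at most 0.05 and an absolute log2 fold change of at least 1. Intervals are 95%.

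The 42 members and all gene lists were chosen with earlier results of these data known. Values in every library are given for the most abundant member of each of the 9 roles, the 3 lowest and 3 highest changes with budesonide at 24 h and any member not called there. For other lists the 2 called genes of highest mean level are named. HMMR and KIF20A, CDC25C and NEK2 at 6 h, CDKN1C at 6 h, and CCND3 and CDKN2C were named after their values were seen. The CDC25B and CCNA2 promoters were chosen likewise.

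The labels number the libraries alike in each group without saying what a number shares. Libraries with the same number deviated from their group means together, with every correlation over 0.1 in 27 of 30 comparisons, and in all at 12 h and 24 h. The main fit, which gave the p-values, standard errors and intervals above, did not use this pairing. A fit with the replicate number as a block was made as an alternative. Other alternatives were the pseudocount, the filter, the scaling, the trend, the libraries fitted, the minimum fold and leaving out libraries.

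Promoters were matched by symbol to RefSeq windows (GRCh38.p14), of which 36 members had one.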

Additional observations from a re-analysis of the deposited data

Results flagged for a closer look

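The summed level and the levels of named members were searched, within groups of 4 libraries, for a library far from the others. Of 78 such sets of 4 values 6 held one, where chance gives about 1 in 20. With IL-1β-plus-budesonide the 42 mRNAs summed to 1806 TPM in number 3 at 6 h, and at 24 h CCNB1 was at 40.0 TPM in number 2 and INCENP at 7.34 TPM and PLK1 at 12.6 TPM in number 1. CDC25B was at 165 TPM in number 3 with IL-1β at 24 h, and BIRC5 at 54.0 TPM in number 1 of NS at 24 h.

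Changes differed between times and from additivity by a test of the difference. The log2 change was lower at 24 h than at 12 h for 39 members with IL-1β-plus-budesonide, 41 with budesonide and 35 with IL-1β. The change with cotreatment at 24 h differed from the sum of both single changes for 41 members. Among the genes named, the difference was 2.12 for CENPA, 2.08 for PLK1, 2.07 for BIRC5, 2.04 for CDK1 and INCENP, 2.02 for UBE2C, 1.91 for PRC1, 1.72 for MAD2L1, 1.71 for CENPF, 1.66 for CCNB2 and TOP2A, 1.56 for CCNB1, 1.28 for ECT2 and 1.22 for PTTG1 on the log2 scale.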

How the results depend on the processing

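The 24 h counts against NS of 41 with IL-1β-plus-budesonide and 41 with budesonide, the 41 interactions and the 41 larger falls with budesonide at 24 h than at 12 h stayed within 1.5 times under all alternatives, as did the 39 with IL-1β (38 to 40 without one replicate number). Of 400 counts under an alternative, 364 were within 1.5 times of the reported count. With the replicate block the count was 2 for IL-1β-plus-budesonide against NS and 1 for it against IL-1β at 12 h, and no other count left that range. With quantile normalization these were 2 for IL-1β-plus-budesonide against NS at 12 h and 0 for it against IL-1β at 6 h. Without the 5 distant libraries, an alternative chosen after seeing the data, IL-1β-plus-budesonide against NS at 12 h had 0. Leaving out one replicate number in turn gave 1 to 3 for IL-1β-plus-budesonide against NS at 12 h, 0 to 1 for it against IL-1β at 6 h and 0 to 1 at 12 h, 5 to 11 at 24 h, and 11 to 20 for budesonide against IL-1β at 24 h.

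With no minimum fold the counts against NS were 6 with IL-1β-plus-budesonide and 2 with IL-1β at 2 h, 9 with IL-1β-plus-budesonide, 3 with budesonide and 10 with IL-1β at 6 h, and 18, 15 and 26 with these treatments at 12 h. For IL-1β-plus-budesonide against IL-1β they were 2, 3 and 39 at 6, 12 and 24 h, against budesonide 2 at 6 h, and for budesonide against IL-1β 42 at 24 h. With a minimum of 0.5 they were 2 with IL-1β-plus-budesonide and 2 with IL-1β at 2 h, then with IL-1β-plus-budesonide, budesonide and IL-1β 5, 1 and 6 at 6 h and 11, 10 and 18 at 12 h, 1 and 37 for IL-1β-plus-budesonide against IL-1β at 12 and 24 h and 41 for budesonide against IL-1β. These follow from the fold required.

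Values near 0 with budesonide at 12 h changed sign, none of them called. CDC25B (-0.01) was 0.03 with median-of-ratios scaling, between -0.03 and 0.01 when one replicate number was left out (0.01 and 0.00 without replicate 2 and 4), and 0.04 without the 5 distant libraries. CDC20 (-0.08) ran between -0.14 and 0.05 when one replicate number was left out and was -0.17 without the 5 distant libraries, and KIF20A (0.01) was -0.05 without replicate 1. No member changed sign at 24 h in the comparisons with NS, in budesonide against IL-1β or in the interaction. The differences between 12 and 24 h with IL-1β and with IL-1β-plus-budesonide were not recomputed. Medians over all genes stayed within 0.1 of 0 with either scaling in the comparisons checked. Without read counts per library, the part of depth in the precision of low members could not be measured.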
